A study of Homo sapiens with 2 samples.

Results

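DGCR8 and the other core genes of microRNA processing were followed in NK92 cells with and without PPMX-T003. The 10 genes were chosen by name out of 46425 gene symbols in the deposited table: DROSHA, DGCR8, XPO5, DICER1, TARBP2, AGO1, AGO2, AGO3, AGO4 and TNRC6A. DGCR8, which binds heme, is named in the study's CRISPR screen of iron-requiring molecules in leukemia cells, and that screen was not analysed here.

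The NK92 line was established from a human natural killer (NK) cell malignancy, and PPMX-T003 is an inhibitory antibody to TfR1, the transferrin receptor by which iron enters cells. The 2 libraries come from dishes with and without PPMX-T003 (10 µg/mL) over the last 6 h of culture. Before that, the cells of both had shared 1 culture for 18 h. Both dishes held the same line, grown in medium with human serum, and 1 stranded poly(A) RNA library was made from each, with 46766416 counts for the control and 43178462 for the exposed dish. The column taken as the control carries the name 0 h and the other 6 h, although the methods give equal culture times, so that harvest time and antibody cannot be told apart.

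With 1 library per condition no difference below has a replicate check and no p-value is given. Each log2 fold change (exposed minus control) carries a 95% Clopper-Pearson interval on the division of a gene's reads between the libraries, and pairs of values are given with the control first. The interval covers counting error only and compares the libraries, not the conditions. In bulk RNA, fewer cells with a transcript and less transcript per cell cannot be told apart.

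The libraries carried the transcripts of NK cells. All 14 NK markers reached 20 counts over both libraries, led by NKG7 (3215 and 3445 TPM, a transcript level scaled for length and depth) and GZMB (1850 and 2149 TPM), with NCAM1, which encodes CD56, at 89 and 82 TPM. Their summed level was 7224 and 7796 TPM. FCGR3A, which encodes CD16, was listed at 0 TPM with 16 and 15 counts. Of 7 T cell markers (748 and 767 TPM summed), CD3E (673 and 698 TPM) and TRAC (75 and 69 TPM) were present, whereas CD3D, CD3G, CD8A and CD8B had 0 counts in both libraries. The B cell marker MS4A1 and the 4 erythroid markers were also at 0 counts. The 4 B cell markers summed to 1 and 1 TPM, all from CD79A, and the 4 myeloid markers to 3 and 2 TPM, all from ITGAM. The other myeloid markers had 22 and 9 counts (CSF1R), 2 and 0 (LYZ) and 0 and 7 (CD14).

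MicroRNAs are cut from long primary transcripts in steps. In the nucleus the Microprocessor, made of the ribonuclease III enzyme DROSHA and its double-stranded RNA-binding partner DGCR8, releases a hairpin that exportin 5 (XPO5) carries to the cytoplasm with the GTPase RAN. There DICER1 and its partner TARBP2 cut the hairpin to a short duplex, one strand of which is kept by an Argonaute protein (AGO1 to AGO4) that recruits TNRC6A to repress matching mRNAs. Binding of heme by DGCR8 promotes primary microRNA processing, and heme is built around iron.

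DGCR8 lies on chromosome 22 from 20080241 to 20111872 on the plus strand (GRCh38.p14, RefSeq) and itself holds a pair of microRNA hairpins in exon 2. MIR3618 lies in the 5′ untranslated part of that exon and MIR1306 in its coding part. The Microprocessor is known to cut hairpins in the DGCR8 mRNA, which lowers the level of its own partner. The mature sequences from RefSeq are shown because they mark the DGCR8 segments that are both mRNA and microRNA precursor, with the seed (bases 2 to 8) in capitals.
hsa-miR-3618: uGUCUACAuuaaugaaaagagc
hsa-miR-1306-5p: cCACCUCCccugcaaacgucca
hsa-miR-1306-3p: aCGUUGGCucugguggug
They occupy chr22:20085797-20085818, chr22:20086072-20086093 and chr22:20086112-20086129, and their 3 seeds differ from each other. The separately listed hairpin genes took few reads, with 2 and 2 counts for MIR3618 and 3 and 3 for MIR1306. Genes on the other strand overlap exons of DGCR8 (TRMT2A and AC006547.2), XPO5 (POLR1C), DICER1 (DICER1-AS1), TARBP2 (AC023509.4), AGO1 (AL139286.2) and AGO3 (AL138787.2). The libraries keep the strand, but whether the counting used it is not given in the sources used here.

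All 10 genes passed the minimum of 20 summed counts, but their levels differed widely. Per transcript length, in the deposited TPM rounded to whole numbers, XPO5 was highest with 86 TPM in the control and 77 in the exposed library. It was followed in the control by TNRC6A (50), DROSHA (40), TARBP2 (37), DICER1 (33), AGO2 (26), DGCR8 (24), AGO1 (14), AGO3 (7) and AGO4 (0). When rounding and counting error were combined, DROSHA (38.3 to 41.8) overlapped TARBP2 (34.4 to 39.7), and AGO2 (24.9 to 27.1) overlapped DGCR8 (22.5 to 25.5), whereas the remaining neighbours in this order did not overlap. In the exposed library TARBP2 (42 TPM, 39.2 to 44.9) stood above DROSHA (36 TPM, 34.3 to 37.7) and beside TNRC6A (42 TPM), and DGCR8 (23 TPM, 21.5 to 24.5) stood above AGO2 (20 TPM, 19.0 to 21.0).

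**Figure D1:**
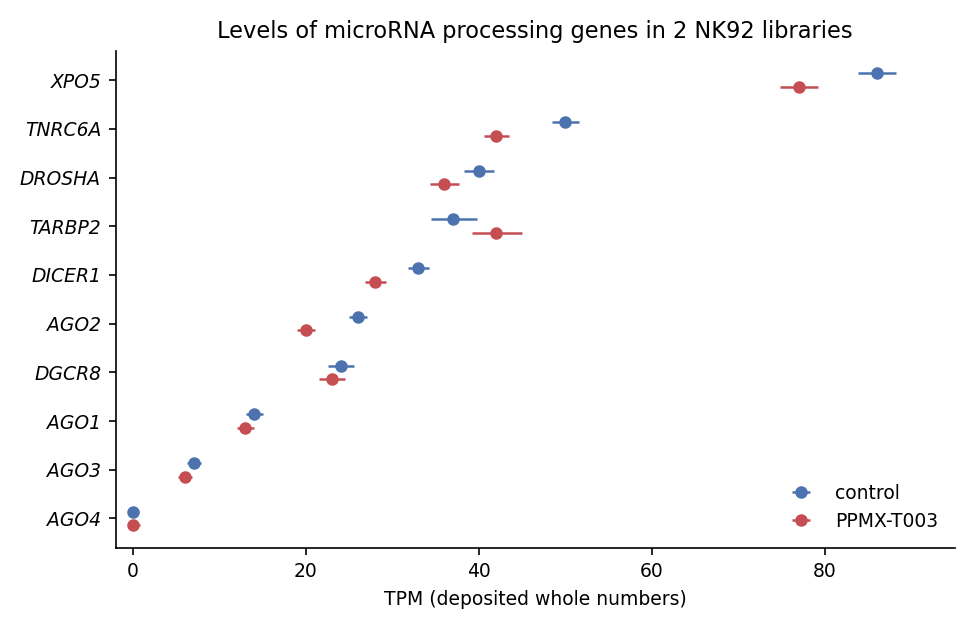
Level of each microRNA processing gene in TPM (horizontal axis) in the control library (blue) and the library exposed to PPMX-T003 (red). Points are the deposited whole numbers and bars combine their rounding with the 95% counting interval; XPO5 is highest at 86 and 77 TPM, AGO4 is listed at 0 and TARBP2 is the only gene whose point is higher with PPMX-T003.

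Most of the machinery was lower in the exposed library, by less than 2-fold. The median log2 fold change over the 10 genes was -0.16, against -0.0020 over all 13665 genes tested. The interval lay below 0 for 7 genes (DROSHA, XPO5, DICER1, AGO1, AGO2, AGO3 and TNRC6A), above 0 for 1 (TARBP2) and held 0 for DGCR8 and AGO4. Among all genes tested, 23.9% had an interval below 0 and 21.8% above it (45.7% together). Among 5444 genes with summed counts between 2372 and 17748, the range of all the members but AGO4, the shares were 34.4% and 26.4%. No member was past 2-fold in either direction, whereas 2.64% of all genes tested were (1.27% higher and 1.38% lower). Summed over the 10 genes, 46548 and 38454 reads made up 0.0995% and 0.0891% of the libraries.

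Log2 fold changes of all genes followed the GC content of their transcripts, with medians of -0.13 and 0.12 in the lowest and highest of 10 equal groups of genes ordered by GC content. With a fit on GC content and transcript length removed, the median of the 10 genes was -0.045, the intervals of AGO2, AGO3 and TNRC6A lay below 0 and none lay above it. Under this fit 19.2% of 11962 genes lay below 0 and 19.2% above it, and 23.5% and 21.8% of the 5386 with counts in the range of the members. When the fit used each gene's longest transcript instead, the median was -0.024, and the genes with intervals below 0 were AGO2, TNRC6A and XPO5, against 19.4% of genes below and 19.0% above 0 (23.2% and 20.9% in the range of the members).

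**Figure D2:**
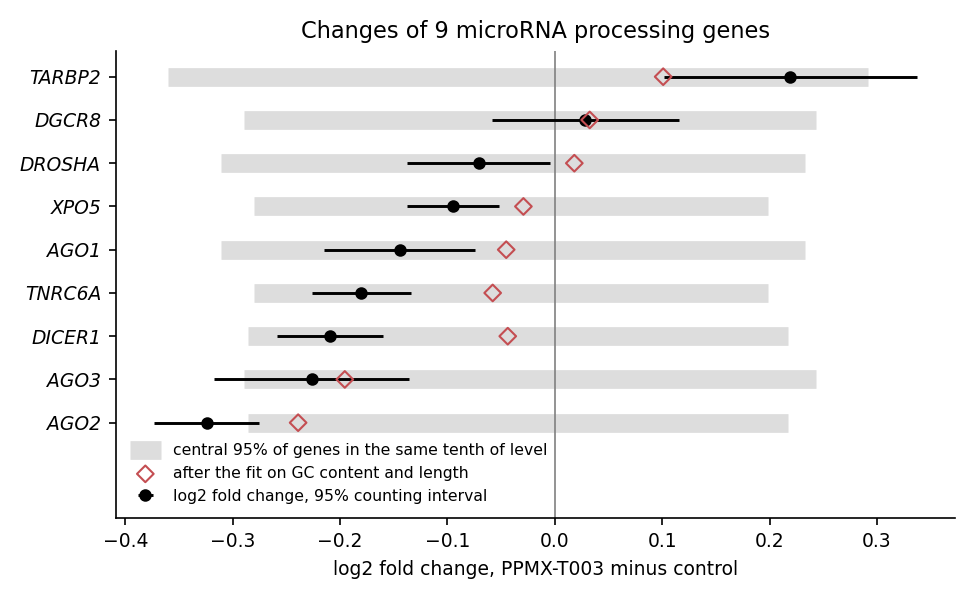
Log2 fold change (PPMX-T003 minus control, horizontal axis) of the 9 genes other than AGO4, with 95% counting intervals (black), the value after the fit on GC content and length (red diamonds) and the central 95% of genes in the same of 10 groups by mean level (grey bars). AGO2, at -0.32, is the one point outside its grey bar; the diamonds of DROSHA and DGCR8 lie just above 0.

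DGCR8 of the nuclear step had 2197 counts in the control and 2066 in the exposed library (46.9 and 47.9 CPM, counts scaled to library size), a log2 fold change of 0.03 with an interval from -0.06 to 0.12. A change of DGCR8 mRNA was thus not detectable at this depth, and the interval allows a difference between -3.99% and 8.36%. On the deposited TPM scale the value was -0.06. Transcripts of like GC content had a median of 0.04. The genes nearest to DGCR8 in log2 CPM over the 2 libraries were GLRX (2213 and 2074 counts), DUSP12 (2188 and 2048) and TMEM258 (2185 and 2046), which describes a like level only.

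DROSHA (chromosome 5, 31400494 to 31532093, minus strand), the catalytic subunit of the Microprocessor, had 3906 and 3428 counts (83.5 and 79.4 CPM). Its log2 fold change of -0.07 had an interval from -0.14 to -0.0045, which held 0 with upper-quartile scaling and at 99% confidence, and its value was 0.02 with the fit on GC content and length removed. Of the reads of both Microprocessor genes, DROSHA took 64.0% (95% Clopper-Pearson interval 62.8% to 65.2%) in the control and 62.4% (61.1% to 63.7%) in the exposed library, and these overlap. The log2 fold change of their summed reads was -0.03 (-0.09 to 0.02).

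XPO5 (chromosome 6, 43522334 to 43576038, minus strand) had 9525 and 8223 counts (204 and 191 CPM). Its log2 fold change was -0.09 (-0.14 to -0.05), inside the central 95% of genes of its level (-0.28 to 0.20). After the fit it was -0.03.

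The Dicer step held genes on both sides of 0. DICER1 (chromosome 14, 95086228 to 95158010, minus strand) had 7482 and 5967 counts (160 and 138 CPM), a log2 fold change of -0.21 (-0.26 to -0.16). TARBP2 (chromosome 12, 53500923 to 53506431, plus strand), the smaller partner that stabilises DICER1, had 1144 and 1228 counts (24.4 and 28.5 CPM), a log2 fold change of 0.22 (0.10 to 0.34). The share of DICER1 in the reads of both was 86.7% (86.0% to 87.4%) in the control and 82.9% (82.0% to 83.8%) in the exposed library, without overlap. The DICER1 transcripts had a GC content of 41.0% and those of TARBP2 59.7%, the lowest and the highest among the 10 genes, and the median gene of like GC content was at -0.10 and 0.09. After the fit DICER1 was at -0.04 and TARBP2 at 0.10, and the shifted intervals of both held 0.

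**Figure D3:**
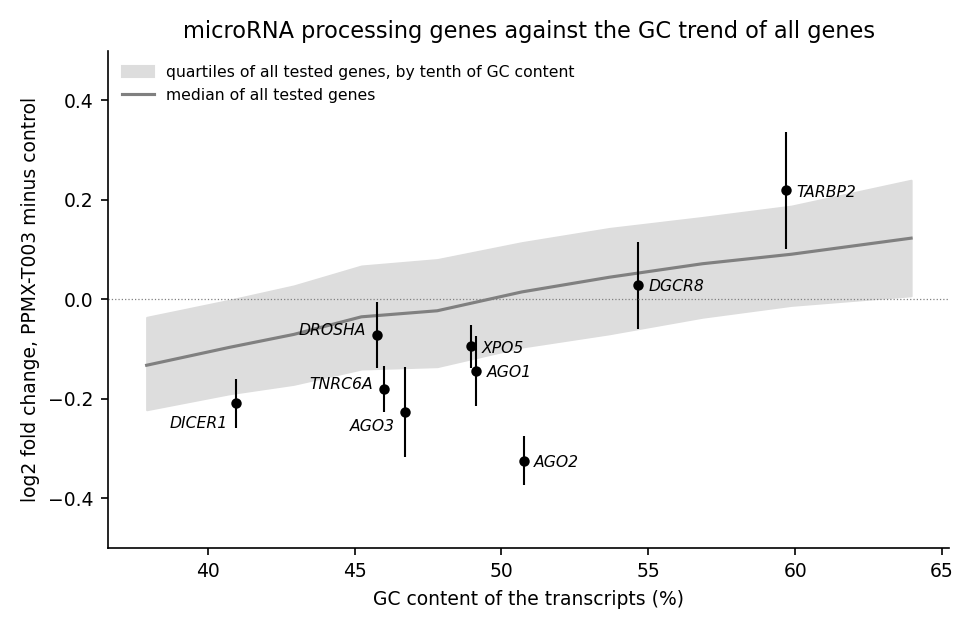
Log2 fold change (PPMX-T003 minus control, vertical axis) against the GC content of the transcripts in percent (horizontal axis). The line and band give the median and quartiles of all tested genes in 10 groups by GC content, points with 95% counting intervals the 9 genes other than AGO4; DICER1 and TARBP2 have the lowest and highest GC content of the 9 genes and AGO2 lies far below the band at 50.8% GC.

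Of the 4 Argonaute genes AGO1, AGO2 and AGO3 were lower beyond counting error and AGO4 was not, and of these AGO2 alone had a shifted interval below 0 after both fits. AGO2, which encodes the Argonaute with slicer activity, had 7906 and 5821 counts (169 and 135 CPM), the log2 fold change farthest from 0 among the 9 genes other than AGO4. Its log2 fold change was -0.32 (-0.37 to -0.28), or -20.1% (-22.8% to -17.4%). This placed AGO2 at percentile 1.54 of 1366 genes in its group by mean level (10 equal groups), whose central 95% ran from -0.29 to 0.22. The transcripts of AGO2 had a GC content of 50.8%, and the median gene of like GC content was at 0.01. AGO2 was at -0.24 after the fit and at -0.19 with the longest transcripts. The annotated gene AC067931.1 shares exons with AGO2 on the same strand, and how reads were divided there was not tested.

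AGO1, AGO3 and AGO4 lie side by side on the plus strand of chromosome 1, with 11870 bases between AGO4 and AGO1 and 185 between AGO1 and AGO3. AGO1 (35869761 to 35930532) had 3611 and 3012 counts (77.2 and 69.8 CPM), a log2 fold change of -0.14 (-0.21 to -0.07). AGO3 (35930718 to 36072500) had 2225 and 1753 counts (47.5 and 40.6 CPM), a log2 fold change of -0.23 (-0.32 to -0.14). AGO4 (35807636 to 35857890) was barely detected beside these neighbours. It had 23 and 16 counts (0.491 and 0.371 CPM), and a difference was not detectable, with an interval from -1.42 to 0.58.

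After the fit AGO1 was at -0.05 and AGO3 at -0.20. When GC content and length came from the longest transcripts, the values were -0.01 and -0.0032. Summed over the 4 Argonaute genes, 13765 control reads stood against 10602 exposed reads, a log2 fold change of -0.26 (-0.30 to -0.22). AGO2 gave 57.4% (56.6% to 58.3%) of these reads in the control and 54.9% (54.0% to 55.9%) in the exposed library. These shares do not overlap, and they count reads, not transcripts.

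TNRC6A (chromosome 16, 24610205 to 24826218, plus strand), the GW182 protein that links Argonaute to deadenylation, had 8529 and 6940 counts (182 and 161 CPM). Its log2 fold change was -0.18 (-0.23 to -0.13). It was -0.06 after the fit and -0.08 with the longest transcripts, and in both the shifted interval stayed below 0. In this it stood with AGO2.

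The wider pathway lay on both sides of 0. Of 85 further genes in 5 lists, 83 reached the count minimum, with a median of -0.02. The interval lay below 0 for 30 (36.1%) and above 0 for 21 (25.3%), against 23.9% and 21.8% of all genes tested and 34.4% and 26.4% of the 5444 genes with counts in the range of the members. The latter shares are close to those of the list. No pathway gene was past 2-fold. After the fit the intervals of 13 were below and those of 27 above 0, where 19.2% and 19.2% of all genes lay (23.5% and 21.8% in the range of the members).

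Partners of the nuclear step were found on both sides. Of 18 tested, 8 (44.4%) were higher and 5 (27.8%) lower beyond counting error, against 21.8% and 23.9% of all genes tested and 26.4% and 34.4% of genes with counts in the range of the members. Their median was 0.01. ERH (0.11), a DGCR8-binding protein, and the splicing factor SRSF3 (0.09) were higher. DDX17 (-0.15), a Microprocessor helicase, and TARDBP (-0.14) were lower, while the related helicase DDX5 was at 0.06 (0.03 to 0.08). When longest transcripts were fitted, DDX17 was at -0.09 and TARDBP at -0.03, and the shifted interval of TARDBP held 0.

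LIN28B, which blocks processing of let-7 precursors, was expressed in NK92 cells at 27 and 21 TPM. It had 3057 and 2320 counts (-0.28, -0.36 to -0.20) and was at -0.16 after the fit. Its paralogue LIN28A had 0 counts in both libraries, which allows up to 3 counts per library.

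Of the 4 export and import genes, RAN (0.07) was higher, XPO1 (-0.13) and the Argonaute importin IPO8 (-0.15) were lower, and PHAX was at -0.03 with an interval that held 0. These are 25% higher and 50% lower, of 4 genes only, against 21.8% and 23.9% of all genes tested. Genes with counts in the range of the members had shares of 26.4% and 34.4%. After the fit XPO1 was at 0.01 and IPO8 at -0.04, both with shifted intervals that held 0. Of 20 tested partners of DICER1 and of Argonaute loading, 5 (25%) were higher and 5 (25%) lower, with a median of -0.01. Among all genes tested the shares were 21.8% and 23.9%, and among genes with counts in the range of the members 26.4% and 34.4%. The chaperone HSPA8 had 220699 and 230174 counts (0.18, 0.17 to 0.19), and SND1 (0.11) and DNAJB1 (0.08) were higher too. The RNA-binding proteins FXR1 (-0.14) and FMR1 (-0.13) and the RNA-editing enzyme ADAR (-0.11) were lower, although FXR1 was at 0.03 when longest transcripts were fitted. After the fit on median transcripts DNAJB1 was at 0.04 and FMR1 at -0.04, and their shifted intervals held 0. ADAR was at -0.04 after that fit and at -0.06 with the longest transcripts. TRIM71 had 3 and 0 counts.

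Silencing effectors include the enzymes that remove poly(A) tails and caps. Of 28 genes, 14 (50%) were lower and 5 (17.9%) higher. The shares were 23.9% and 21.8% among all genes tested, and 34.4% and 26.4% among genes with counts in the range of the members. The median of the 28 genes was -0.06, and 0.0018 after the fit. XRN1, the 5′ to 3′ exonuclease, had 4217 and 3108 counts (-0.32, -0.39 to -0.26), the decapping factor DCP1A 3043 and 2295 (-0.29, -0.37 to -0.21) and the helicase DDX6 12235 and 9668 (-0.22, -0.26 to -0.18). After the fit XRN1 was at -0.15 and DDX6 at -0.09. EIF4ENIF1 (0.24, 0.12 to 0.36), the decapping scaffold EDC4 (0.12, with exons shared with AC040162.3) and CNOT9 (0.06) were higher. The TNRC6A paralogues TNRC6B (-0.17, -0.25 to -0.10) and TNRC6C (-0.04, -0.16 to 0.08) were at 9 and 6 TPM in the control, well below TNRC6A. After the fit TNRC6B was at 0.01 and TNRC6C at 0.04, with shifted intervals that held 0.

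Among 13 genes of precursor tailing and microRNA turnover, 4 (30.8%) were lower and 2 (15.4%) higher. The shares were 23.9% and 21.8% among all genes tested, and 34.4% and 26.4% among genes with counts in the range of the members. TUT4, which adds uridines to let-7 precursors bound by LIN28 proteins, had 4707 and 3590 counts (-0.27, -0.34 to -0.21), and TUT7, which shares this activity, 1799 and 1458 (-0.19, -0.29 to -0.09). XRN2 was at -0.10. After the fit TUT4 was at -0.12, whereas TUT7 (-0.08) and XRN2 (-0.02) had shifted intervals that held 0. TUT1, the U6 uridylyltransferase, had 1894 and 2085 counts (0.26, 0.17 to 0.35) and shares exons with AP002990.1, and ELOB was at 0.14 but at -0.03 after the fit.

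**Figure D4:**
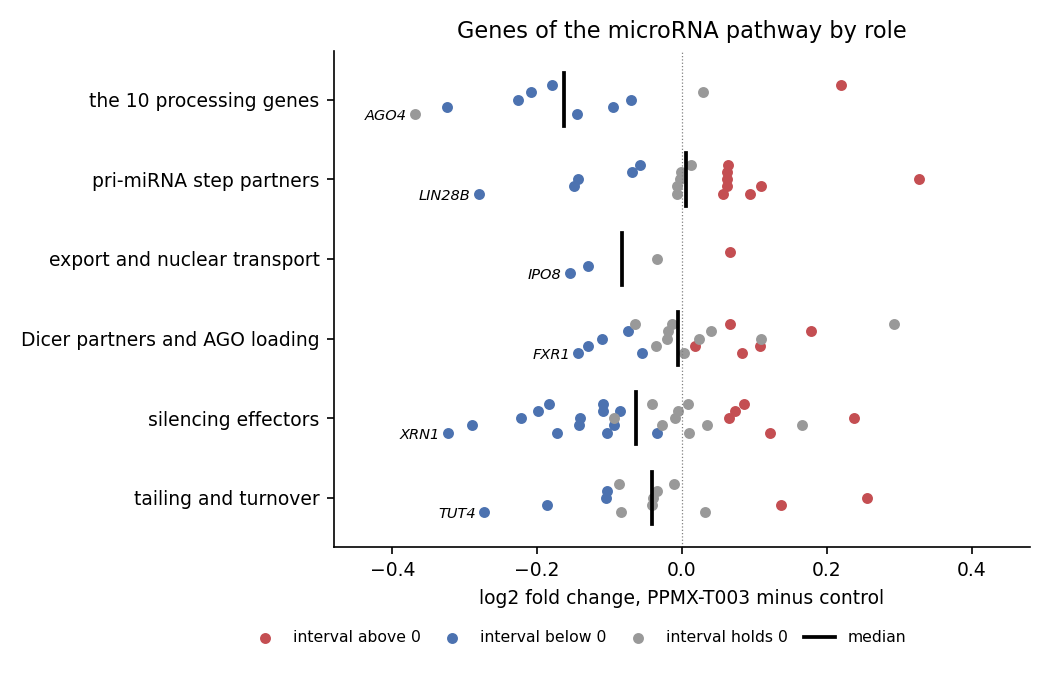
Log2 fold change (PPMX-T003 minus control, horizontal axis) of the 10 processing genes and of 83 further pathway genes by role; each point is a gene, coloured by the side of 0 on which its 95% counting interval lies, and the black bar is the median. The median of the 10 processing genes lies at -0.16 and those of the other lists between -0.08 and 0.01; the lowest gene of each row is named.

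Primary microRNA transcripts were read through their host genes, since poly(A) libraries do not measure mature microRNAs. Of 87 host genes, 31 were tested, with a median of 0.01. The interval lay above 0 for 9 and below 0 for 9 of these, against 21.8% and 23.9% of all genes tested. Genes with counts in the range of the members had shares of 26.4% and 34.4%. CTDSPL, EGFL7 and MEST had 0 counts in both libraries. MIR155HG (chr21:25562145-25575168), the non-coding precursor of miR-155, had 1331 and 945 counts beside 3 and 3 for the hairpin MIR155 in its exon. Its log2 fold change was the lowest among the tested hosts with an interval outside 0 (-0.38, -0.50 to -0.26). MIR17HG, the precursor of the miR-17-92 cluster, had 1304 and 1096 counts (-0.13, -0.25 to -0.02). MIR4435-2HG was at -0.10 and MIR9-3HG at 0.20 (0.11 to 0.28).

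Some seeds are encoded in several hosts. Before the fit, the hosts of the miR-17, miR-92 and miR-103 seeds lay on both sides of 0. Those of the miR-15 seed (DLEU2 at -0.03 and SMC4 at -0.21), the miR-26 seed (CTDSP1 at 0.24 and CTDSP2 at 0.35) and the miR-33 seed (SREBF1 at 0.51 and SREBF2 at 0.01) had values on one side, with the intervals of DLEU2, CTDSP2 and SREBF2 holding 0. After the fit DLEU2 was at 0.01 and SMC4 at -0.05, and SREBF1 at 0.43 and SREBF2 at -0.0048. The values of these pairs then also lay on both sides, but the shifted intervals of DLEU2 and SREBF2 held 0. Some of the families are shown, with seeds in capitals, and for miR-103a the 3p arm only. Also shown are miR-155-5p of MIR155HG, and miR-98-5p and let-7f-5p of HUWE1, whose seeds were not among those in several tested hosts. PANK1, MCM7, DLEU2 and CTDSP2 were chosen after their values were seen.
hsa-miR-155-5p (MIR155HG): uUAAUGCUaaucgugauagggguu
hsa-miR-17-5p (MIR17HG): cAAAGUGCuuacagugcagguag
hsa-miR-20a-5p (MIR17HG): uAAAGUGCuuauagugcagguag
hsa-miR-93-5p (MCM7): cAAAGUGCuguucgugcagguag
hsa-miR-106b-5p (MCM7): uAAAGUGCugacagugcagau
hsa-miR-92a-3p (MIR17HG): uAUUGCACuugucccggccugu
hsa-miR-25-3p (MCM7): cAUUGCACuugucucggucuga
hsa-miR-107 (PANK1): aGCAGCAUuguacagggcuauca
hsa-miR-103a-3p (PANK2 and PANK3): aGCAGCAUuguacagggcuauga
hsa-miR-98-5p (HUWE1): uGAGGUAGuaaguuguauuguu
hsa-let-7f-5p (HUWE1): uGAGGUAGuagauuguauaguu
The seeds AAAGUGC and AUUGCAC occur both in MIR17HG, which was lower, and in introns of MCM7, a replicative helicase gene that had 34474 and 33830 counts (0.09, 0.07 to 0.11). After the fit MIR17HG was at -0.07 with a shifted interval that held 0, and MCM7 was at 0.04. The seed GCAGCAU occurs in introns of 3 pantothenate kinase genes. PANK3 had 11551 and 8495 counts (-0.33, -0.37 to -0.29) and PANK1 664 and 507 (-0.27, -0.44 to -0.10), while PANK2 had 4110 and 4178 (0.14, 0.08 to 0.20). The pseudogene SLC2A3P1 shares exons with PANK3, and the division of reads there was not tested. After the fit PANK3 was at -0.12, PANK1 at -0.17 and PANK2 at 0.14.

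HUWE1, a ubiquitin ligase gene with let-7f-2 and miR-98 in its introns, had 29558 and 23977 counts (-0.18, -0.21 to -0.16), and SMC4, a condensin gene that holds miR-15b and miR-16-2, 27678 and 22018 (-0.21, -0.24 to -0.19). After the fit these were at -0.06 and -0.05. CTDSP1, the host of miR-26b, had 4675 and 5085 counts (0.24, 0.18 to 0.30), and was at 0.12 after the fit. SREBF1, the host of miR-33b, had 196 and 258 (0.51, 0.24 to 0.79), whereas SREBF2, the host of miR-33a, was at 0.01 (-0.04 to 0.05). The level of a host mRNA is not the level of its microRNA.

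**Figure D5:**
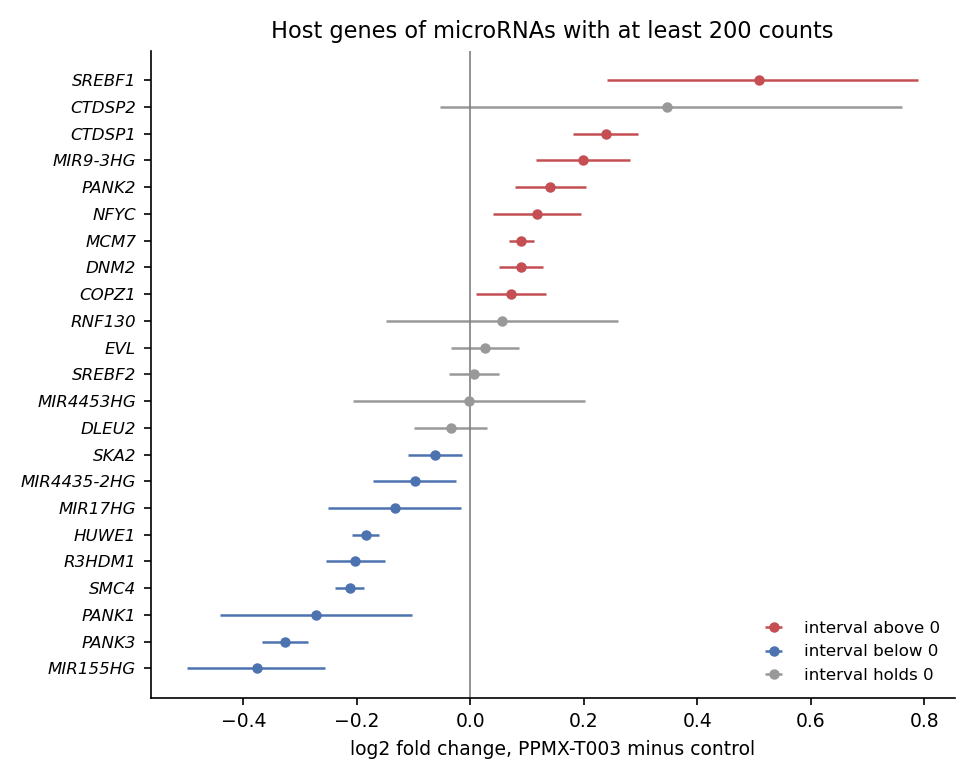
Log2 fold change (PPMX-T003 minus control, horizontal axis) of the microRNA host genes with at least 200 counts, with 95% counting intervals coloured by the side of 0 on which they lie. MIR155HG is lowest at -0.38 and SREBF1 highest at 0.51, and the hosts of miR-103 and miR-107 (PANK1, PANK2 and PANK3) lie on both sides of 0.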

How the data were processed

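RNA of NK92 cells was sequenced from 1 control and 1 exposed dish. Per the labels and methods, the authors trimmed reads with Trimmomatic 0.38, mapped them to hg38 with HISAT2 2.2.0, counted them with StringTie 2.1.3b and named edgeR 3.17. The deposited counts are whole, unscaled reads per gene. Large values carry a comma as digit separator, stripped on reading, and no dispersion model was fitted. The deposited FPKM and TPM were rounded by the authors to whole numbers and treated as a score. On genes with TPM of at least 20 in both libraries, the median difference between the TPM and the count log2 ratio was -0.054.

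Counts were scaled by the trimmed mean of M-values (factors 1.00 and 0.999), and log2 CPM used a prior count of 2, in Python 3.11.15 (numpy 2.4.6, pandas 2.3.3, scipy 1.17.1, statsmodels 0.14.6). Genes with at least 20 summed counts were tested. The statistics were tested on simulated data. With 1 library per condition no test was made, and precision is given by the interval. GC content and length were medians over GENCODE release 29 basic transcripts, known for 87.5% of tested genes, and fold changes were regressed robustly on GC content, its square and log2 length over genes that had 200 counts or more. Locations and microRNA sequences are from RefSeq (GRCh38.p14). Named genes are the 10 members, in each direction the 3 genes of each list whose interval bound nearest to 0 was largest, list genes with at most 3 counts in a library (non-coding hosts of that kind were not named one by one) or past 2-fold, and the genes nearest to DGCR8; others named for comparison (DDX5, PHAX, TNRC6B, TNRC6C, PANK1, MCM7, DLEU2, CTDSP2, SREBF2) were chosen after their values were seen. The results of some genes under this rule and of a marker are not reported here. The members and lists were chosen with earlier results of these data known. Alternatives were 3 other scalings, other prior counts, count filters and confidence, TPM, and removal of the fit.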

Additional observations from a re-analysis of the deposited data

How the results depend on the processing

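With 1 library per condition, no replicate could be left out. No paired analysis was possible because there is only 1 library for each condition. Scaling to library size, by upper quartiles or by median of ratios gave medians of the 10 genes between -0.17 and -0.15, and prior counts of 0.5 and 5 and the deposited TPM gave -0.16, -0.16 and -0.15. The deposited TPM gave the pathway genes a median of -0.084 in place of -0.021 and DGCR8 a value of -0.059, and a minimum of 1 count gave the host genes a median of -0.035 in place of 0.0062. Among the fits on GC content and length, that with the longest transcripts, and the use of either for counts of genes and list genes, was chosen after seeing the data. They gave medians of the 10 genes of -0.045 and -0.024, with 0 and 0 intervals above 0 in place of 1, and 3 and 3 below 0 in place of 7. Of the 83 pathway genes, 13 and 13 were then below 0 in place of 30. Those above 0 were 27 and 24 in place of 21. Under these fits 19.2% and 19.4% of 11962 genes lay below 0 and 19.2% and 19.0% above it. Genes with an interval outside 0 that changed sign with a fit included DROSHA (0.018), XPO1 (0.012), TNRC6B (0.013), ELOB (-0.030, and -0.036 with the longest transcripts) and FXR1 (0.031 with the longest transcripts). On the TPM scale 4 of the 10 genes and 25 of 37 other named genes lay outside their counting intervals. Over 6112 genes with at least 20 TPM in both libraries, the TPM log2 ratio differed from the count value by a median of -0.054. The cause of these moves was not tested. Low counts limit AGO4, MIR3618 and MIR1306. MIR3618 and MIR1306 share exons with DGCR8 on the same strand, and how reads were divided between them was not tested.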

Other observations

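The table lists 1722 microRNA hairpin genes by themselves, of which 343 had at least 1 count and 24 at least 20 over both libraries. Together they took 2767 counts in the control and 2636 in the exposed library, 0.00592% and 0.00610% of all counts, and MIR1244-2, which has a listed copy in MIR1244-3, held 1370 and 1287 of them. None of the 24 had a 95% counting interval outside 0, against 45.7% of all genes tested. The interval is wide at low counts, so this does not show that hairpin levels were unchanged.

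Among the non-coding microRNA hosts, MIR600HG was the one tested gene past 2-fold, with 18 counts in the control and 57 in the exposed library (log2 fold change 1.67, interval 0.99 to 2.63). The hairpin MIR600 inside it had 2 counts in each library, and the deposited TPM listed MIR600HG at 0 in both.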
